A study of Mus musculus with 24 samples.

Results

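The enzymes of bile acid synthesis were followed as 10 genes, taken from the deposited tables by gene symbol from 49315 genes: Cyp7a1, Cyp8b1, Hsd3b7, Akr1d1, Cyp27a1, Cyp7b1, Amacr, Acox2, Slc27a5 and Baat. All 10 had a row, and all 10 passed the filter on low counts, which kept 17216 genes. RNA was sequenced from mouse liver in 4 groups of 6 libraries. Tumour-bearing livers carried AKT and YAP1, delivered by a transposon so that cholangiocarcinoma, a cancer of bile duct epithelium, arose. Control livers had received the empty construct. Both conditions were set up in mice of wild-type and of Mdr2-/- genotype, the latter without Abcb4, the canalicular transporter that brings phospholipid into bile. The labels give no age, sex, promoter or time of day, and do not say that each library is a different animal, so p-values cover only the variation among these libraries. Xist was at 511 to 2791 counts per 1000000 in all 24 libraries and Ddx3y, on the Y chromosome, at no more than 0.297, so the groups did not differ in the sex these genes mark.

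The liver makes bile acids from cholesterol by a pair of routes. In the classical route Cyp7a1 adds the first hydroxyl group and sets the pace, and Cyp8b1 decides how much cholic acid is formed. In the alternative route Cyp27a1 oxidises the side chain and Cyp7b1 then hydroxylates the ring. Hsd3b7 and Akr1d1 remodel the ring, Amacr and Acox2 act in the peroxisome on the side chain, and Slc27a5 and Baat join the product to coenzyme A and then to taurine or glycine. Bile acids returning from the gut repress Cyp7a1 and Cyp8b1 through the receptor FXR (Nr1h4) and the hormone receptor pair Fgfr4 and Klb, and Cyp7a1 also follows the daily clock.

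The table of RefSeq promoters used here (build GRCm38.p6) matched 5 of the 10 genes by symbol, and 3 are shown because these genes were lower in Mdr2-/- than in wild-type control livers. Each is the 250 bases upstream of the start site on the gene's own strand, and capitals mark matches to AGGTCA, the nuclear receptor half-site, or CAAAGTCCA, an HNF4-type site, searched on both strands.
Cyp8b1, chr9:121916306-121916555, minus strand: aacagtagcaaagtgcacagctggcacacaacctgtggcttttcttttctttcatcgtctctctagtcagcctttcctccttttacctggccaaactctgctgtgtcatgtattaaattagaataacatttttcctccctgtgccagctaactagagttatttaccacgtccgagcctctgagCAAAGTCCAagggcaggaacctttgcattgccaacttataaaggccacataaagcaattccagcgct
Akr1d1, chr6:37529923-37530172, plus strand: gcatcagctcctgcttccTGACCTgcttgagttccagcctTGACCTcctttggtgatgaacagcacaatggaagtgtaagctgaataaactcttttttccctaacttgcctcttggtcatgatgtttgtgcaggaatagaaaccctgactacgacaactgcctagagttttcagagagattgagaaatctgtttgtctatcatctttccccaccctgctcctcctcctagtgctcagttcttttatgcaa
Cyp27a1, chr1:74713285-74713534, plus strand: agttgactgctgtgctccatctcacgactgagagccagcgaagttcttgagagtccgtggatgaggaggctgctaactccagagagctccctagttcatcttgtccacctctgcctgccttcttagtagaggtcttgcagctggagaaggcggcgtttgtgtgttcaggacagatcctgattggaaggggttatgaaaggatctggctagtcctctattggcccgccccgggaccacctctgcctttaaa
The Cyp8b1 window held CAAAGTCCA once, a string found in 0.384% of 32851 windows of the same length. The Akr1d1 window held AGGTCA on the opposite strand at 2 places, a string found in 14.02% of windows. The Cyp27a1 window held neither, and none of the windows of these genes held CAAGGTCA, an LRH-1-type site found in 1.33% of windows. A match describes letters only and is not evidence of binding.

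Levels are CPM, counts per 1000000 after TMM scaling, and changes are log2 fold changes ± SE from an edgeR quasi-likelihood model of all 24 libraries. A gene rose or fell where its Benjamini-Hochberg adjusted p over all genes tested was under 0.05. Total counts were 20976459 to 30288385 per library. The lowest count behind any value of the 10 genes was 43, for Hsd3b7. The transcripts of the 11 hepatocyte markers measured summed to 127389 to 160969 CPM in wild-type controls and 64523 to 111419 CPM in wild-type livers with tumours. In Mdr2-/- livers they summed to 90935 to 111032 CPM without and 37620 to 72430 CPM with tumours. The 8 bile duct markers summed, in the same order, to 68.2 to 141, 167 to 1415, 90.6 to 348 and 1123 to 4064 CPM. Of these 8, 6 rose with tumours in each genotype and 7 rose in Mdr2-/- against wild-type controls, where 5 of 6 macrophage and 4 of 5 stellate cell and fibroblast markers also rose. No marker of these lists was at 0 in any library, and the part of cell composition in the results was not tested. In whole tissue, fewer hepatocytes and less RNA per hepatocyte cannot be told apart.

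On TPM, which corrects for length, the 10 genes spanned a wide range of levels in wild-type controls. Slc27a5 had the highest mean, 490.0 ± 86.0 TPM (SD, n = 6). Akr1d1 at 362 ± 84.2 and Baat at 353 ± 56.4 TPM followed. Cyp27a1 stood at 227 ± 68.4 TPM and Cyp7a1 at 150.4 ± 72.8 TPM. Acox2, Cyp8b1, Cyp7b1 and Amacr had mean levels of 67.5 to 100.4 TPM. The ranges of neighbours in this order overlapped, and the order within single libraries was not tested. Genes further apart could separate, as Slc27a5 at 380 to 604 TPM lay above Cyp27a1 at 121 to 322 TPM. Hsd3b7 was lowest at 2.80 ± 1.30 TPM, with no overlap with Amacr. In wild-type livers with tumours Cyp7b1 lay below Amacr without overlap, at 20.4 ± 4.33 against 62.6 ± 3.19 TPM. The same held in Mdr2-/- controls, at 19.0 ± 1.80 against 90.9 ± 15.4 TPM. With tumours, Mdr2-/- livers had 22.8 ± 5.04 against 69.1 ± 9.85 TPM, also without overlap.

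**Figure D1:**
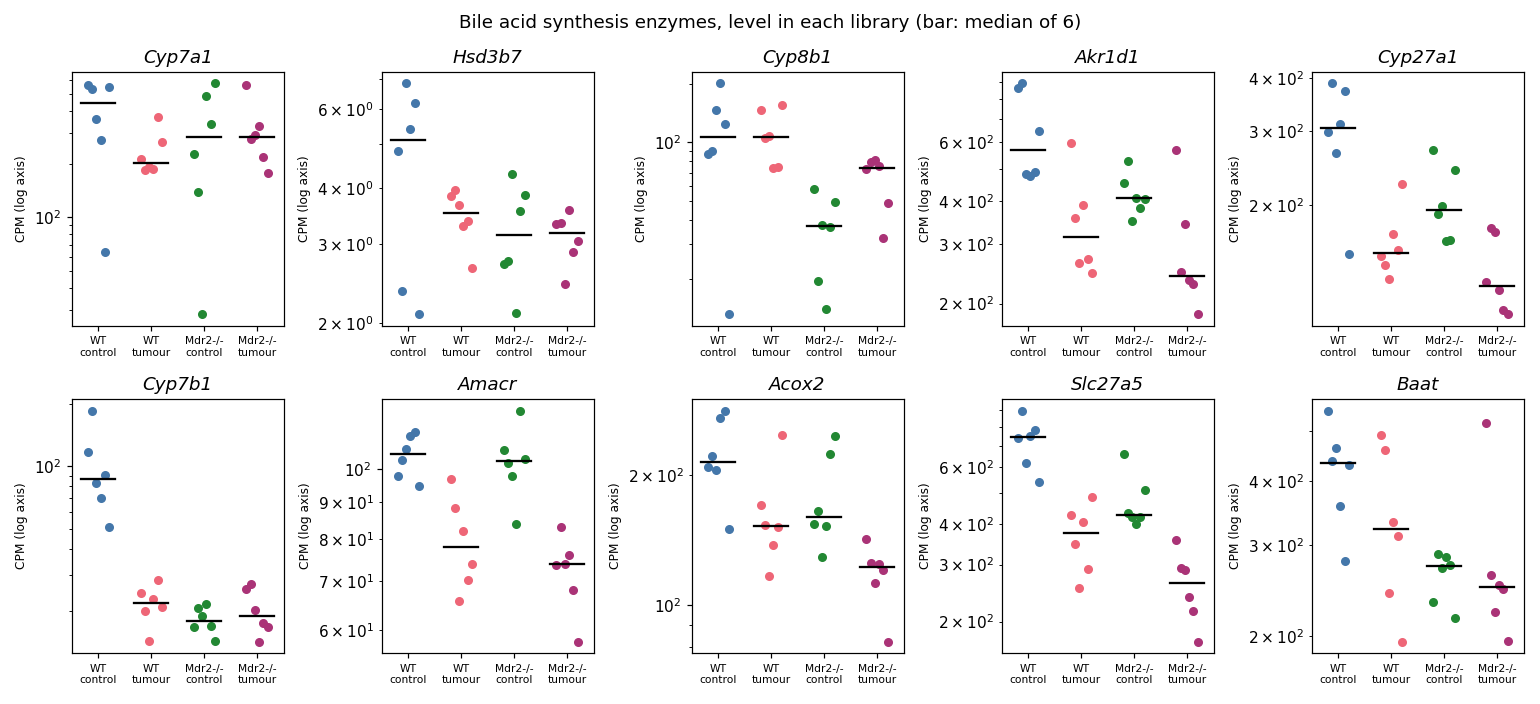
Level of each of the 10 genes in CPM (log axis) in the 4 groups; every point is 1 library and the bar is the median of 6. Cyp7b1 is the gene whose wild-type control libraries, at 51.2 to 186 CPM, all lie above the other 18, and Cyp7a1 spans 28.3 to 573 CPM over all libraries.

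Cyp7b1 (ENSMUSG00000039519), the ring hydroxylase of the alternative route, showed the plainest pattern. In wild-type controls the lowest, median and highest libraries were at 51.2, 87.3 and 186 CPM. With tumours, wild-type libraries were at 14.3, 21.8 and 28.1 CPM. Mdr2-/- libraries were at 14.4, 17.9 and 21.7 CPM without and at 14.2, 18.9 and 27.1 CPM with tumours. Every wild-type control library was above every other library, and the other 3 groups overlapped. Cyp7b1 fell by 2.20 ± 0.24 in wild-type tumour-bearing against control livers (edgeR adjusted p = 2.3e-07), a 4.60-fold difference. It fell by 2.45 ± 0.24 in Mdr2-/- against wild-type controls (edgeR adjusted p = 1.7e-08), a 5.47-fold difference. In Mdr2-/- mice the tumour comparison gave 0.15 ± 0.23 (edgeR adjusted p = 0.630). The tumour effect differed between genotypes by 2.35 ± 0.33 (edgeR adjusted p = 2.9e-05). These 3 calls were made in every alternative run, with changes of -2.34 to -1.67, -2.57 to -1.83 and 1.89 to 2.51. The tumour comparison in wild-type mice, that of genotype in controls and the difference share the 6 wild-type control libraries, so they are not independent. The genes with the most similar profile over the 24 libraries, by root mean square difference of centred log2 CPM, were Slc3a1 (0.352), Serpina3m (0.387) and Cyp2c68 (0.422), against a spread of 1.04 for Cyp7b1 itself.

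In wild-type mice, livers with tumours had lower levels of both enzymes of the alternative route and of enzymes of ring, side chain and conjugation steps. Besides Cyp7b1, Slc27a5, Cyp27a1, Akr1d1 and Amacr fell, so that 5 of 10 fell and 0 rose, where 11.5% of all genes tested fell and 16.9% rose. In the same comparison 6 of 11 hepatocyte markers fell, and 3 of 6 macrophage and 3 of 5 stellate cell and fibroblast markers rose, and their part in the result was not tested. The median change of the 10 genes was -0.59, against 0.03 for all genes. Slc27a5, the bile acid CoA ligase, had 540.5, 744 and 898 CPM in its lowest, median and highest wild-type control library and 254, 377 and 486 CPM with tumours. The groups did not overlap in CPM, and it fell by 0.97 ± 0.18 (edgeR adjusted p = 0.00033). On TPM they did overlap, at 380 to 604 in controls and 248 to 467 with tumours. Cyp27a1, the side chain oxidase of mitochondria, had 154, 304 and 388 CPM in controls and 134, 154 and 225 CPM with tumours. The groups overlapped, and it fell by 0.86 ± 0.19 (edgeR adjusted p = 0.0014). Akr1d1, the steroid 5-beta-reductase, had a mean of 641 ± 194 CPM in controls and 354 ± 131 CPM with tumours, and fell by 0.86 ± 0.25 (edgeR adjusted p = 0.012). Amacr, the racemase of the side chain, had means of 104 ± 7.16 and 79.6 ± 11.8 CPM and fell by 0.39 ± 0.11 (edgeR adjusted p = 0.011). Its fold change was 0.04 when libraries were scaled on the hepatocyte markers. The range of the title number separates most wild-type controls from the wild-type livers with tumours. With that range as a covariate 2 of the 10 genes fell, Cyp7b1 and Slc27a5. Of all genes 3485 were then called in either direction, against 4891 as reported.

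In Mdr2-/- mice the tumour-bearing livers had lower levels of Slc27a5, the first of both conjugation enzymes, and of 3 enzymes that act on the side chain. Slc27a5, Acox2, Cyp27a1 and Amacr fell, 4 of 10 with 0 risen, where 17% of all genes tested fell and 17.9% rose. The median change was -0.27, against 0.04 for all genes. Cyp8b1 went the other way without passing the test, with means of 35.8 CPM in controls and 65.1 CPM with tumours. Its change was 0.86 ± 0.40 (edgeR adjusted p = 0.091), and it was called as risen in 5 of 39 alternatives. Slc27a5 had 399, 427 and 661 CPM in its lowest, median and highest Mdr2-/- control library and 173, 264 and 357 CPM with tumours. The groups did not overlap, and it fell by 0.86 ± 0.18 (edgeR adjusted p = 0.0014). Amacr had 84.1, 103 and 120.5 CPM in controls and 57.8, 73.9 and 83.2 CPM with tumours. These groups did not overlap in CPM either, and it fell by 0.51 ± 0.11 (edgeR adjusted p = 0.0020). On TPM the Amacr groups did overlap, at 72.6 to 112 in controls and 53.9 to 82.2 with tumours. Acox2, the branched-chain acyl-CoA oxidase, fell by 0.60 ± 0.19 (edgeR adjusted p = 0.017), and Cyp27a1 fell by 0.57 ± 0.19 (edgeR adjusted p = 0.024). With the share of nuclear non-coding RNA as a covariate, 0 of the 10 genes fell, at -0.56 for Slc27a5, -0.42 for Amacr, -0.090 for Acox2 and -0.063 for Cyp27a1, and 1.53% of all genes fell. That share was 1.74 to 4.29% in Mdr2-/- controls and 4.60 to 7.95% with tumours, without overlap, and its part in the result was not tested. Of the 11 hepatocyte markers 7 fell in this comparison, and when libraries were scaled on them 0 of the 10 genes fell and 4 rose, where 1.03% of all genes fell and 61.8% rose and the median of all genes moved by 0.64. Without tumour-bearing replicate 6 or without control replicate 6 the calls of Cyp27a1 and Acox2 were lost, which left 2 genes, and that of Cyp27a1 was also lost without tumour-bearing replicate 5 or control replicate 1.

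The tumour effects on the other 9 genes did not pass the test of a difference between genotypes. Cyp7b1 alone was called, so 1 of 10 was higher and 0 lower in this test, where 11.9% and 13.4% of all genes were. For Slc27a5 the difference was 0.11 ± 0.26 and for Cyp27a1 0.30 ± 0.27, with edgeR adjusted p = 0.782 and 0.421.

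**Figure D2:**
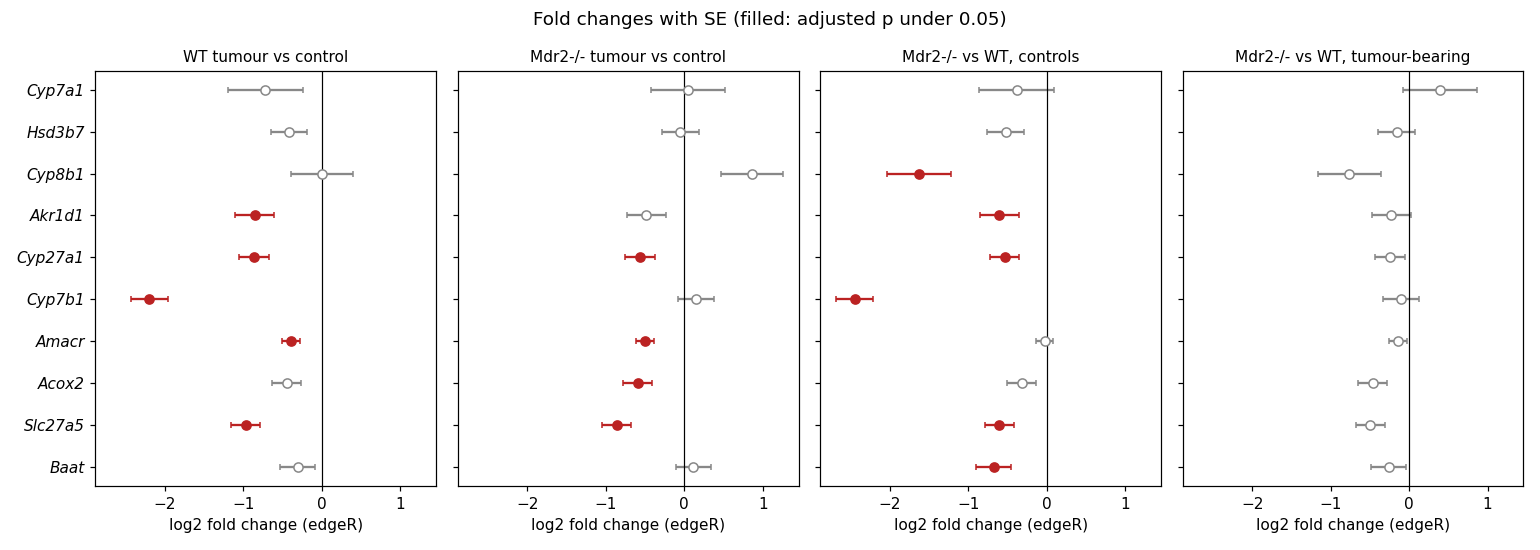
log2 fold change with SE of each gene in 4 comparisons of groups; filled points passed an adjusted p of 0.05. Cyp7b1 fell with tumours in wild-type mice (-2.20) and by genotype in controls (-2.45), and no gene passed in tumour-bearing livers of one genotype against the other.

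In control livers of Mdr2-/- against wild-type mice, enzymes of both routes and of conjugation were lower on the CPM scale, and neither peroxisomal enzyme of the side chain passed the test. Cyp7b1, Cyp8b1, Baat, Akr1d1, Slc27a5 and Cyp27a1 fell, 6 of 10 with 0 risen, where 24.3% of all genes tested fell and 26.2% rose. Of the 11 hepatocyte markers 5 fell here, as did 6 of the 7 nuclear non-coding RNAs, whose share was 2.91 to 5.42% of counts in wild-type and 1.74 to 4.29% in Mdr2-/- controls. With that share as a covariate Baat had -0.43 (edgeR adjusted p = 0.057) and Akr1d1 -0.43 (edgeR adjusted p = 0.145), and their calls were lost. The part of these RNAs and markers in the result was not tested. The median change was -0.57, against 0.03 for all genes. Cyp8b1, the sterol 12-alpha-hydroxylase, had 13.1, 107 and 201 CPM in its lowest, median and highest wild-type control library and 13.96, 37.2 and 57.7 CPM in Mdr2-/- controls. The groups overlapped through 1 wild-type library, replicate 6, and Cyp8b1 fell by 1.63 ± 0.41 (edgeR adjusted p = 0.0020). Baat, the amino acid transferase of the last step, had 279, 432.5 and 547 CPM in wild-type and 217, 273 and 288 CPM in Mdr2-/- controls. It fell by 0.68 ± 0.22 (edgeR adjusted p = 0.015). Akr1d1 fell by 0.61 ± 0.25 (edgeR adjusted p = 0.045), Slc27a5 fell by 0.60 ± 0.18 (edgeR adjusted p = 0.0080) and Cyp27a1 fell by 0.54 ± 0.19 (edgeR adjusted p = 0.021). Amacr was nearly level, at 104 ± 7.16 and 102 ± 11.8 CPM. The Akr1d1 call, at a change of -0.66 to -0.47 with single libraries left out, was lost in 12 of those 24 fits, among them the fits without Mdr2-/- control replicate 1, 3, 4, 5 or 6 or wild-type control replicate 1, 2 or 6 and without 4 tumour-bearing libraries. That of Cyp27a1 was lost without Mdr2-/- control replicate 4 or 5 or wild-type control replicate 2 or 5. On log2(TPM + 1), whose median over all genes lay 0.27 higher, Cyp7b1 alone fell and Amacr rose by 0.42, with 83.6% of calls upward against 51.9% in CPM.

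**Figure D3:**
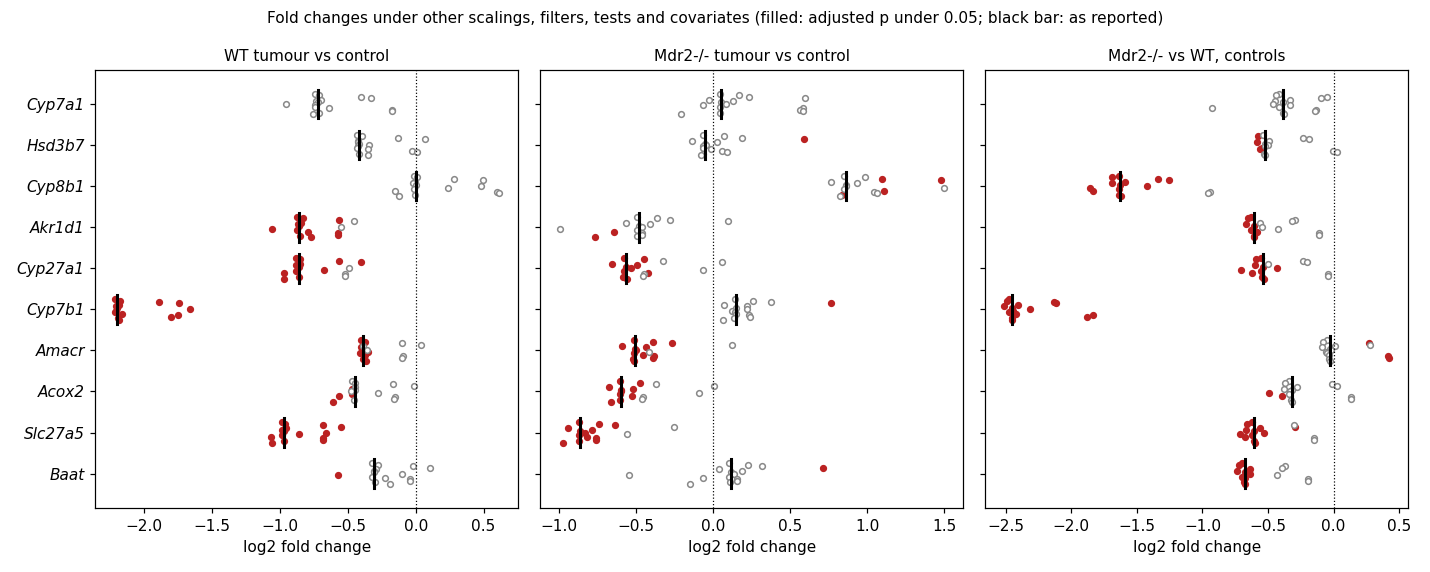
log2 fold change of each gene in 3 comparisons under the alternatives other than leaving out single libraries; each point is 1 alternative, filled where the adjusted p was under 0.05, and the black bar is the reported value. Points of Cyp7b1 stay left of -1.6 in wild-type tumours and in controls by genotype, while most other genes move towards 0 under some alternatives.

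Among tumour-bearing livers, 0 of the 10 genes fell and 0 rose between genotypes by edgeR, where 4% of all genes tested fell and 7.13% rose. At the nearest to the threshold, Slc27a5 had -0.50 ± 0.18 (edgeR adjusted p = 0.077). At an unadjusted p under 0.05 Slc27a5 and Acox2 were lower, 2 of 10, as were 10.9% of all genes. DESeq2 called 1 of the 10 genes as fallen, Slc27a5, and limma voom called 2, Slc27a5 and Baat. Of the 17216 genes tested, DESeq2 called 2503 and limma voom 4120 in either direction. With tumours, Cyp7b1 had mean levels of 21.7 ± 4.65 CPM in the wild-type and 20.2 ± 5.12 CPM in the Mdr2-/- group.

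Cyp7a1 (ENSMUSG00000028240), the enzyme that sets the pace of the classical route, was not called in any comparison. Its lowest, median and highest libraries had 63.6, 446 and 559.8 CPM in wild-type controls and 186, 204 and 370.0 CPM in wild-type livers with tumours. In Mdr2-/- mice they had 28.3, 283 and 573 CPM without and 178, 285 and 559 CPM with tumours. The highest library was 20.2 times the lowest, against 2.08 times for Amacr. The wild-type tumour comparison gave -0.72 ± 0.48 (edgeR adjusted p = 0.272) and genotype in controls -0.38 ± 0.47 (edgeR adjusted p = 0.516). Neither passed, and the size of change that could pass with this spread was not tested. Hsd3b7, the ring oxidoreductase, was low throughout, at 2.09 to 6.84 CPM, and was not called in any comparison.

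The gene with the profile most like that of Cyp7a1 over the 24 libraries was Nr1d2, a clock repressor, with a root mean square difference of 0.689 against a spread of 0.996 for Cyp7a1 itself. Dnhd1 (0.760) and Gpcpd1 (0.770) followed. For Cyp8b1 the nearest were Paqr9 (0.645), Ugt1a5 (0.652) and Cda (0.684). A list of 12 clock genes was chosen after this value was seen. Mdr2-/- control replicate 3, lowest for Cyp7a1 at 28.3 CPM, was also lowest for Nr1d2 at 21.9 CPM and highest for Arntl, a core clock activator, at 25.3 CPM. Wild-type control replicate 6, lowest of its group for Cyp8b1 at 13.1 CPM, was highest of all for Nr1d2 at 388 CPM. It was lowest for Arntl at 1.45 CPM, where the other 5 wild-type controls had Arntl at 9.25 to 14.9 CPM. Mdr2-/- control replicate 4, nearly as low for Cyp8b1 at 13.96 CPM, had Nr1d2 at 144 CPM, and Mdr2-/- control replicate 3 had Cyp8b1 at 37.7 CPM. Wild-type control replicates 1 and 4 had Arntl at 9.46 and 9.32 CPM and Cyp7a1 at 560 and 274 CPM. Arntl fell by 2.01 ± 0.56 in wild-type tumour-bearing against control livers (edgeR adjusted p = 0.0094). There 3 of the 12 clock genes fell and 0 rose, where 11.5% of all genes fell and 16.9% rose. The median change of the 12 was 0.06, and 6 were lower. Between control genotypes 1 of 12 fell and 0 rose, beside 24.3% and 26.2% of all genes. In the Mdr2-/- tumour comparison 0 of 12 were called, where 17% of all genes fell and 17.9% rose. Between tumour-bearing genotypes 0 of 12 were called, where 4% fell and 7.13% rose. The time of day of sampling is not in the labels, and its part in the values of Cyp7a1, Cyp8b1 and Cyp7b1 was not tested.

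**Figure D4:**
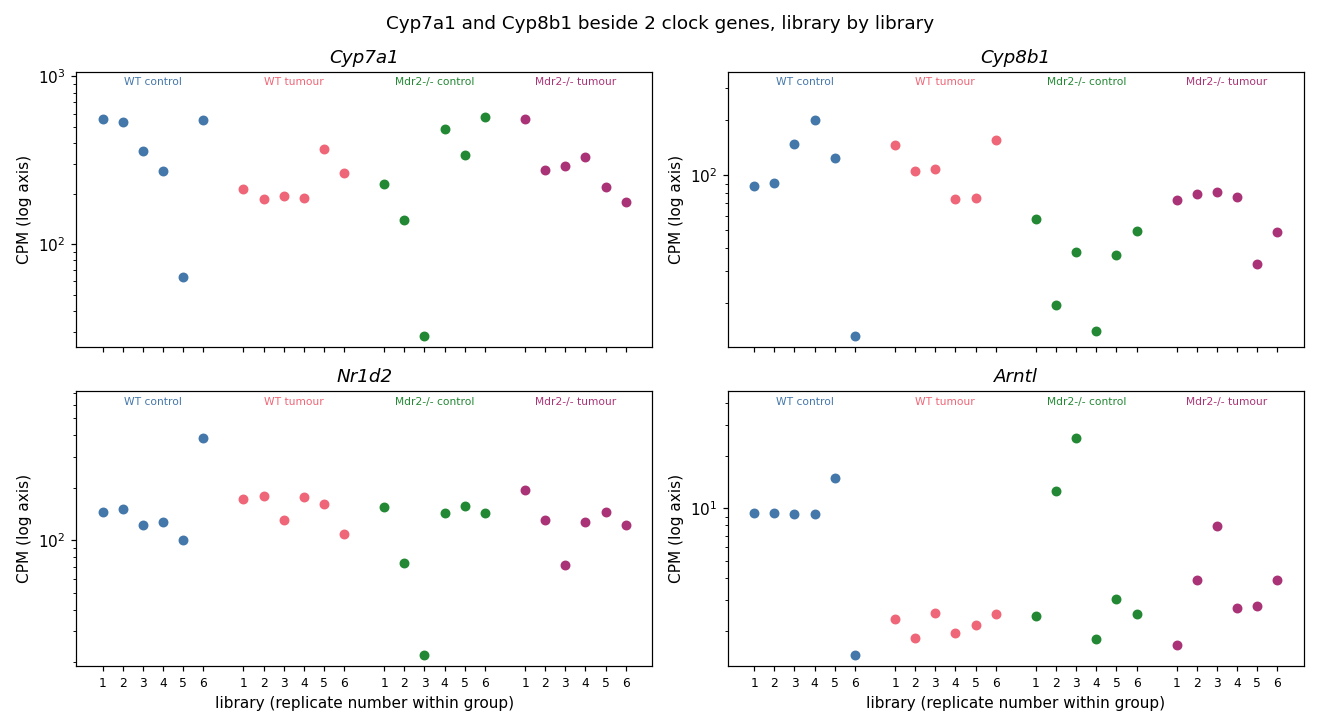
CPM (log axis) of Cyp7a1, Cyp8b1, Nr1d2 and Arntl in each of the 24 libraries; the number under a point is its replicate within the group and has no order. Mdr2-/- control replicate 3 is lowest for Cyp7a1 (28.3) and Nr1d2 (21.9) and highest for Arntl (25.3).

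A ratio of a pair of enzymes within a library does not depend on how libraries are scaled. The log2 TPM ratio of Cyp7a1 over Cyp7b1, the first hydroxylases of the ring in each route, was 0.85 ± 1.30 in wild-type controls and 2.48 ± 0.33 in wild-type livers with tumours (SD, n = 6). In Mdr2-/- mice it was 2.59 ± 1.68 without and 2.93 ± 0.51 with tumours. The difference of 1.63 in wild-type mice had a 2-sided exact permutation p = 0.0087, or 0.052 adjusted over 8 tests, where the smallest exact p is 0.00216. The groups overlapped. With single libraries left out the difference was 1.17, without wild-type control replicate 5, to 1.96, without wild-type control replicate 6, and only the last passed (exact permutation, adjusted p = 0.017). Between control genotypes it differed by 1.74 (exact permutation p = 0.074, adjusted p = 0.196). With single libraries left out it was 1.28, without wild-type control replicate 5, to 2.33, without Mdr2-/- control replicate 3, and only the last passed (exact permutation, adjusted p = 0.035). The ratio of Cyp8b1 over Cyp7a1 was -0.01 ± 0.64 in wild-type and -1.13 ± 0.50 in Mdr2-/- tumour-bearing livers, a difference of -1.11 (exact permutation p = 0.013, adjusted p = 0.052). With single libraries left out it was -0.97, without Mdr2-/- tumour replicate 1, to -1.35, without wild-type tumour replicate 5, and only the last passed (exact permutation, adjusted p = 0.017).

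Other genes of the pathway, 14 in number, moved in both directions. In Mdr2-/- controls against wild-type controls 9 fell and 2 rose, beside 24.3% and 26.2% of all genes. Akr1c14, a ring reductase, fell by 1.73 ± 0.27, from 934 to 282 CPM, without overlap, and Cyp46a1, the cholesterol 24-hydroxylase, fell by 2.48 ± 0.33, from 3.47 to 0.621 CPM. Also lower were Cyp39a1 (-0.98), Abcd3 (-0.95), Scp2 (-0.88), Acot8 (-0.87), Slc27a2 (-0.74), Fdx1 (-0.58) and Hsd17b4 (-0.48), and Fdxr, the reductase that feeds electrons to Cyp27a1, rose by 0.47. In wild-type tumour-bearing livers 4 fell, beside 11.5% of all genes, namely Cyp2c70 (-1.28), which makes muricholic acids in mice, Cyp39a1 (-0.91), Slc27a2 (-0.68) and Abcd3 (-0.67). In Mdr2-/- tumour-bearing livers 4 fell, beside 17% of all genes, namely Cyp2c70 (-0.76), Fdxr (-0.58), Cyp2a12 (-0.55) and Slc27a2 (-0.53), and 3 rose, beside 17.9%, among them Akr1c14 (0.72) and Acot8 (0.38). Ch25h, cholesterol 25-hydroxylase, rose in all 3 of these comparisons, but at 0.0762 CPM in wild-type controls its fold is not given. Between tumour-bearing genotypes 4 fell, beside 4% of all genes, namely Cyp46a1 (-1.84), Slc27a2 (-0.58), Hsd17b4 (-0.49) and Cyp2a12 (-0.43). All changes in this paragraph had an edgeR adjusted p under 0.05. They come from the reported model alone, and calls of these genes under the alternatives are not given. Over all genes, 17% fell in the Mdr2-/- tumour comparison as reported, and 1.53% with the nuclear non-coding share as a covariate.

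Of 12 regulators, 3 fell in the wild-type and 3 in the Mdr2-/- tumour comparison, and 4 fell and 1 rose between control genotypes. Of all genes 11.5%, 17% and 24.3% fell in these comparisons, and 26.2% rose in the last. In wild-type tumour-bearing livers Klb fell by 1.08 ± 0.20, Nr5a2 (LRH-1) by 0.72 ± 0.12 and Ppargc1a by 0.70 ± 0.22, each without overlap of the groups. In Mdr2-/- tumour-bearing livers Hnf4a fell by 1.12 ± 0.25, Mafg by 0.75 ± 0.17 and Nr1i2 by 0.59 ± 0.18. In Mdr2-/- controls against wild-type controls Klb fell by 1.12 ± 0.20, Ppargc1a by 0.96 ± 0.22, Nr5a2 by 0.52 ± 0.12 and Nr1h4 by 0.37 ± 0.15, and Mafg, a repressor of synthesis genes, rose by 0.45 ± 0.17. Between tumour-bearing genotypes 0 of 12 were called by edgeR, where 4% of all genes fell and 7.13% rose. DESeq2 also called 0, and 2503 of all genes in either direction. Hnf4a was lower at an unadjusted p under 0.05, as were 10.9% of all genes. Limma voom called Ppargc1a as fallen, and 4120 of all genes in either direction. For the other comparisons, calls of the regulators under the alternatives are not given.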

How the data were processed

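The authors deposited raw counts per gene and TPM values, which are corrected for length and scaled to 1 total. The submitters' processing notes name DESeq2 and the build mm39. Aligner, counter and annotation release are not named there, so gene coordinates are not printed. The 10 genes, the lists and the alternatives were chosen with earlier results of these data known, and the clock list after values were seen. Libraries were grouped by their treatment labels. All 60 replicate pairs differed beyond sampling noise (chi-square per gene 26.1 to 247). Of 49315 genes, 174 had no symbol and held at most 0.0178% of counts.

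The test was edgeR 4.0.16 under R 4.3.3 (minimum count of 10 in filterByExpr, TMM, robust quasi-likelihood test, 2-sided, 1 mean per group, biological coefficient of variation 0.272). Named besides the 10 genes are other pathway genes and regulators called in a comparison, and for Cyp7a1, Cyp8b1 and Cyp7b1 the 3 nearest profiles. A further regulator is not reported here, and pathway genes and regulators without a call enter counts only. Ratios used exact permutation tests in Python 3.11.15. Alternatives were other scalings, filters and covariates, DESeq2 1.42.0, limma 3.58.1 on counts and on log2(TPM + 1) and log2(TPM + 0.1), and leaving out libraries. Of 12 hepatocyte markers listed, 11 matched a symbol, and scaling used those 11. The script was tested on simulated data.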

Additional observations from a re-analysis of the deposited data

Results flagged for a closer look

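Of 48 groups of 6 values examined (the 10 genes and 2 log2 ratios in each group), 1 had a library far from the rest, where chance marks about 1 in 20 groups. In Mdr2-/- tumour-bearing livers Baat had 518 CPM in replicate 1, and the next highest library had 263 CPM. By edgeR's test of the difference, the tumour effect differed between genotypes for 6 genes among the 10 genes, the 14 other pathway genes and the 12 regulators. Of the 10 genes 1 was higher and 0 lower, and of the 14 other pathway genes 1 was higher and 1 lower. Of the 12 regulators 1 was higher and 2 lower, where 11.9% of all genes were higher and 13.4% lower. The log2 change with tumours in Mdr2-/- mice minus that in wild-type mice was 2.35 for Cyp7b1, 0.66 for Acot8, 0.51 for Nr5a2, -0.99 for Hnf4a, -0.65 for Mafg and -0.57 for Cyp2a12. These are differences of changes and not of levels.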

How the results depend on the processing

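The 16 fold changes of the 10 genes that were called as reported gave 623 values under the alternatives. Of these 554 were called in the same direction, 65 were no longer called and 4 turned in sign. The 34 that were not called gave 1317 values, of which 35 were called in the same direction and 88 turned in sign, 5 of them called. Fold changes printed above are followed singly here.

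In the Mdr2-/- tumour comparison 2 of the 10 genes fell and 1 rose with total library size, 0 fell and 4 rose when scaled on hepatocyte markers, 0 fell with the nuclear non-coding share as a covariate, and 2 fell on log2(TPM + 1) and log2(TPM + 0.1). There 1 rose with limma voom and with only the 12 libraries compared. Hepatocyte scaling gave 0.057 for Cyp27a1, 0.12 for Amacr and 0.0086 for Acox2. In the wild-type tumour comparison 3 of the 10 genes fell with hepatocyte scaling and on both TPM scales. With the title number range as a covariate 2 fell. Hepatocyte scaling gave 0.039 for Amacr. Over all genes, 290 fell and 7082 rose with hepatocyte scaling, and the title number range called 3485 in either direction. On log2(TPM + 1) 478 fell and 4498 rose, and on log2(TPM + 0.1) 498 and 5071. In controls by genotype 2 fell and 1 rose with total library size, 3 fell with hepatocyte scaling, and 1 fell and 1 rose on both TPM scales. Amacr then had 0.27 with total library size, 0.28 with hepatocyte scaling, 0.011 with no filter, and 0.42 on both TPM scales. Over all genes in this comparison, 2325 fell and 7247 rose with total library size. With hepatocyte scaling 1998 fell and 6760 rose. On log2(TPM + 1) 1589 fell and 8121 rose, and on log2(TPM + 0.1) 1668 and 8403. Between tumour-bearing genotypes 1 of the 10 genes fell with the title number range, with DESeq2 and with only the 12 libraries. These called 1875, 2503 and 1364 of all genes. Without wild-type tumour replicate 6 and Mdr2-/- tumour replicate 1, 2 libraries left out together, 1 also fell. Of all genes 2702 were then called. With voom 2 fell, and 4120 of all genes were called. With hepatocyte scaling 1 rose and Slc27a5 had 0.0011, where 138 of all genes fell and 7159 rose. The difference between tumour effects was -0.037 for Cyp27a1 and -0.17 for Slc27a5 with the title number range, and for Slc27a5 -0.076 on log2(TPM + 1) and -0.077 on log2(TPM + 0.1).

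Over all genes, hepatocyte scaling called 10813 (Mdr2-/- tumour), 7372 (wild-type tumour) and 7297 (tumour-bearing genotypes). The non-coding covariate called 960 in the Mdr2-/- tumour comparison and 2682 in the difference. Between tumour-bearing genotypes total library size called 2927, voom 4120, log2(TPM + 1) 3306 and log2(TPM + 0.1) 3069. Total library size moved the median of all genes by 0.24 to 0.30 in the 4 comparisons of groups, hepatocyte scaling by 0.30 to 0.64, and calls were upward in 75.7 to 91.2% and 77.2 to 98.4% of cases. On log2(TPM + 1) they were upward in 79.9 to 92.3%, and with upper-quartile factors in 67.4% in the Mdr2-/- tumour comparison, whose median moved by 0.12.

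With single libraries left out, 2 to 5 genes fell and 0 to 1 rose in the Mdr2-/- tumour comparison, 5 to 6 fell in wild-type mice, 4 to 6 fell between control genotypes and 0 to 1 between tumour-bearing genotypes, where 1116 to 2751 genes of all were called. The log2 ratio of Cyp7a1 over Cyp7b1 then differed by -0.25 to 0.70 in the Mdr2-/- tumour comparison, 1.17 to 1.96 in wild-type mice and 1.28 to 2.33 between control genotypes, and that of Cyp8b1 over Cyp7a1 by -1.35 to -0.97 between tumour-bearing genotypes. The difference between tumour effects was -0.0059 to 0.25 for Slc27a5, and Amacr between control genotypes had -0.075 to 0.028. Causes were not tested. No paired analysis was possible because the labels give no shared replicate numbers.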
